A study of Mus musculus with 12 samples.

Results

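The arms of the hairpins miR-143 and miR-145 were followed across 5 mouse cell types, MEFs, NT-ESCs, NT-iPSCs, iPSCs and ESCs. The members were the rows of the deposited table named for an arm of either hairpin, which gave 4 of 1042 miRNAs: mmu-miR-143-3p, mmu-miR-143-5p, mmu-miR-145-5p and mmu-miR-145-3p. All 4 had at least 10 reads in at least 2 libraries and entered every test. Short RNAs of 12 RNA samples had been sequenced. There were 3 libraries of MEFs, embryonic fibroblasts of C57B6/129SvJae F1 background, and 3 of ESCs of the line E14 (129/ola). The reprogrammed types, iPSCs, NT-ESCs and NT-iPSCs, had 2 libraries each and were all derived from the same MEFs (C57B6/129SvJae F1). Factor expression gave the iPSCs: Oct4, Sox2, Klf4 and c-Myc were delivered on a lentiviral vector and switched on with dox. The other two came from nuclear transfer (NT) into oocytes without a nucleus of their own, with MEFs as nuclear donors for NT-ESCs and iPSCs for NT-iPSCs. The 4 pluripotent types were grown with LIF on a feeder layer of irradiated MEFs, so that the RNA of each pluripotent library may hold feeder RNA, and the MEFs were grown alone. A single line stood for each cell type and its replicates were RNA batches, so p-values measure the spread between batches and not between lines.

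A miRNA hairpin gives a mature RNA from its 5′ arm and another from its 3′ arm, and usually 1 of them, the guide, is the more abundant. miR-143 and miR-145 are cut from a shared primary transcript and are best known from smooth muscle, where serum response factor and myocardin raise them and where they favour the contractile over the proliferating state. Both are also present in fibroblasts and other mesenchymal cells. The usual guides are miR-143-3p and miR-145-5p, and miR-145-5p is known as a repressor of Klf4 and, in human ESCs, of the mRNAs of Oct4 and Sox2. These statements are background and were not measured here.

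In GRCm38 coordinates Mir143 lies at 61649196 to 61649258 and Mir145a at 61647825 to 61647894 on the minus strand of chromosome 18, with 1301 bases between them. Both hairpins lie inside the RefSeq model of Carmn, a long noncoding RNA gene at 61645878 to 61665538. The GENCODE M21 model of Carmn starts at 61649625 and contains neither. A further annotated hairpin, Mir145b, lies on the same chromosome at 69022199 to 69022273 and has no row of its own in the table, so that reads from it, if any, could be counted under miR-145.

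The deposited values, 1 for every miRNA and library, were size-factor-normalized reads after a variance stabilizing transformation (VST) by the authors, in log2 units. A step of 1 in VST is a 2-fold change at high read numbers and more than that at low ones. The reads behind the values were recovered by inverting the transformation. They numbered 4863365 to 8608689 per library over all miRNAs, so that 3 reads stand for a CPM (miRNA reads scaled to library size) of 0.348 to 0.617, counting error only. The 6 libraries of reprogrammed cells had size factors of 1.14 to 1.44, apart from the range of 0.762 to 0.819 in MEFs and of 0.887 to 0.999 in ESCs. Among 13 miRNAs of pluripotent cells, the summed CPM was 0.869 to 12.4 in MEFs and 98833 to 196957 in the other libraries. The 6 listed miRNAs of skeletal and cardiac muscle summed to a CPM of 106578 to 126978 in MEFs and to at most 3296 in any pluripotent library. In MEFs this sum was nearly all miR-206-3p (mean CPM 100098) and miR-1a-3p (17943), while the listed miR-499-5p was lower in MEFs than in the pluripotent mean, by a VST of -4.40. The part of muscle miRNA in the MEF levels of miR-143 and miR-145 was not tested.

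mmu-miR-143-3p, the guide of its hairpin, was among the most abundant miRNAs of MEFs and ESCs and was far lower in all reprogrammed cells. It had 640638, 432616 and 377159 reads in MEF 13, 14 and 15, and 197997, 228137 and 180568 reads in ESC 2, 3 and 4. It had 9008 and 7084 reads in iPSC 62 and 63, 19816 and 18108 in NT-ESC 71 and 72, and 18492 and 25160 in NT-iPSC 51 and 52. The libraries of MEFs, of ESCs and of reprogrammed cells formed 3 separate ranges. By abundance it ranked from 3 to 6 in the MEF libraries, at 4 or 5 in the ESC libraries and from 46 to 99 in the reprogrammed ones. The mean VST was 21.29 ± 0.44 in MEFs and 19.83 ± 0.12 in ESCs (SD, n = 3 each). NT-iPSCs had a mean of 16.23 ± 0.33, NT-ESCs of 15.96 ± 0.15 and iPSCs of 14.63 ± 0.25 (SD, n = 2 each). It took 5.87% ± 1.42 of the miRNA reads of MEFs (SD, n = 3) and 0.143% ± 0.038 of those of iPSCs (SD, n = 2). From the highest level to the lowest the order was MEFs, ESCs, NT-iPSCs, NT-ESCs and iPSCs, and only the neighbours NT-iPSCs and NT-ESCs did not pass the test against each other.

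mmu-miR-145-3p, the less usual product of its hairpin, kept the same order of cell types at a much lower level. Its reads were 3128, 4783 and 4205 in MEF 13, 14 and 15, and 395, 423 and 406 in ESC 2, 3 and 4. They were 30 and 28 in the iPSC libraries, 101 and 112 in NT-ESC 71 and 72, and 119 and 121 in NT-iPSC 51 and 52. MEFs, ESCs and reprogrammed cells again formed 3 separate ranges, with iPSCs at the bottom. The mean VST was 14.41 ± 0.26 in MEFs and 10.88 ± 0.04 in ESCs (SD, n = 3 each). NT-iPSCs had a mean of 8.75 ± 0.03, NT-ESCs of 8.49 ± 0.34 and iPSCs of 6.57 ± 0.07 (SD, n = 2 each).

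mmu-miR-143-5p, the partner of miR-143-3p, was lowest in ESCs instead. It had 1341, 826 and 1013 reads in MEF 13, 14 and 15 but 61, 28 and 69 in ESC 2, 3 and 4. It had 498 and 469 reads in iPSC 62 and 63, 729 and 777 in NT-ESC 71 and 72, and 791 and 2032 in NT-iPSC 51 and 52. Every ESC library was below every other library, and NT-iPSC 52 lay within the MEF range in VST. The mean VST was 12.47 ± 0.40 in MEFs and 7.84 ± 0.77 in ESCs (SD, n = 3 each). For NT-iPSCs it was 12.14 ± 0.97, for NT-ESCs 11.31 ± 0.30 and for iPSCs 10.58 ± 0.06 (SD, n = 2 each). In the order MEFs, NT-iPSCs, NT-ESCs, iPSCs and ESCs, only iPSCs and ESCs differed as neighbours.

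mmu-miR-145-5p, the usual guide and the arm known as a repressor of Klf4, was at similar low levels in ESCs and iPSCs. Its reads were 3476, 6843 and 4881 in MEF 13, 14 and 15, 478, 660 and 606 in ESC 2, 3 and 4, and 1388 and 694 in iPSC 62 and 63. They were 4620 and 2494 in NT-ESC 71 and 72 and 6022 and 1871 in NT-iPSC 51 and 52. In VST, NT-iPSC 51 lay within the MEF range, and of the iPSC libraries 63 lay below the ESC range (11.10 against 11.19 to 11.48) and 62 above it (12.10). The mean VST was 14.70 ± 0.44 in MEFs and 11.38 ± 0.17 in ESCs (SD, n = 3 each). For NT-iPSCs it was 13.54 ± 1.18, for NT-ESCs 13.48 ± 0.39 and for iPSCs 11.60 ± 0.71 (SD, n = 2 each). NT-iPSC 51 had more reads of miR-145-5p and fewer of miR-143-5p than NT-iPSC 52, so the wide spread of NT-iPSCs ran in opposite directions for the 5p arms. In the order MEFs, NT-iPSCs, NT-ESCs, iPSCs and ESCs, the pairs NT-iPSCs with NT-ESCs and iPSCs with ESCs did not pass the test.

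**Figure D1:**
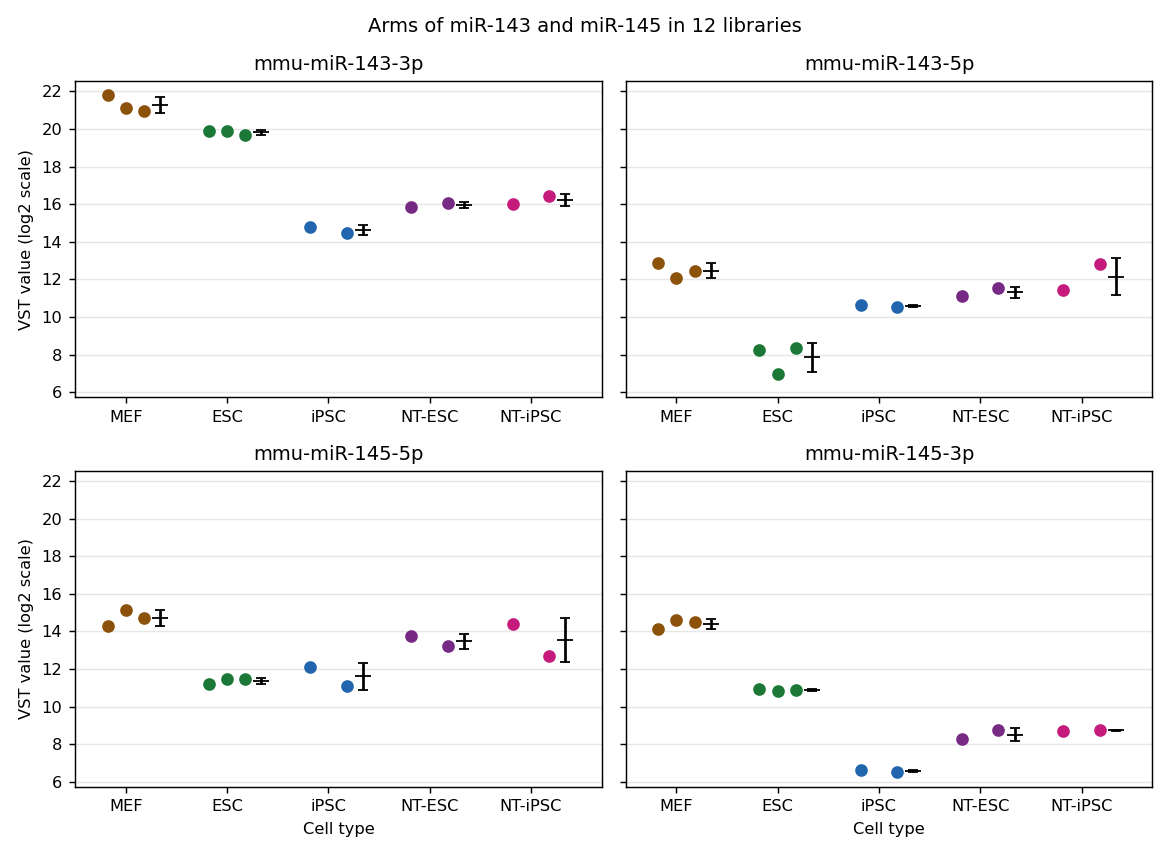
VST values (log2 scale, vertical axis) of the 4 arms by cell type (horizontal axis), 1 point per library with libraries in numerical order, and the mean with its SD as a bar beside them. The 3p arms fall from MEFs through ESCs to the reprogrammed cells, where iPSCs have mean values of 14.63 for miR-143-3p and 6.57 for miR-145-3p. In contrast, miR-143-5p is lowest in ESCs, with a mean of 7.84, and miR-145-5p has similar low means of 11.38 in ESCs and 11.60 in iPSCs.

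Differences between cell types were tested with limma on the VST values of all 12 libraries, with Benjamini-Hochberg adjustment over the 732 miRNAs tested, and differences are given in VST as the first cell type minus the second. All 4 arms were higher in MEFs than in the mean of the 4 pluripotent types. The differences were 4.63 (SE 0.18, adjusted p = 3.5e-10) for miR-143-3p, 2.00 (SE 0.34, adjusted p = 0.000173) for miR-143-5p, 2.20 (SE 0.33, adjusted p = 6.5e-05) for miR-145-5p and 5.73 (SE 0.15, adjusted p = 1.5e-11) for miR-145-3p. Over all miRNAs tested, 86.5% passed in this comparison, 39.8% of the total as higher in MEFs, so that passing it does not set the arms apart. The median difference was 3.42 over the 4 arms and -0.29 over all 732, and the median size without sign was 2.45 over all 732. MEF libraries did not overlap the 9 others for the 3p arms, as for 52.5% of all miRNAs tested, and did for the 5p arms. With total miRNA reads as library size the median of all miRNAs moved by -0.92 and the 5p arms differed by 1.02 and 1.22, still past the threshold. Comparisons with MEFs share the 3 MEF libraries, and those with ESCs the 3 ESC libraries.

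Against ESCs alone, all 4 arms were again higher in MEFs, with no overlap between the libraries, as was the case for 79.9% of all miRNAs tested. The normalized reads were 2.85 times higher for miR-143-3p (VST difference 1.47, SE 0.22, adjusted p = 8.2e-05). They were 23.6 times higher for miR-143-5p (4.63, SE 0.41), 10.3 times for miR-145-5p (3.32, SE 0.40) and 11.6 times for miR-145-3p (3.52, SE 0.18), with adjusted p of at most 1.6e-05. Of all miRNAs, 79% passed and 39.1% passed as higher in MEFs. The median difference of the arms was 3.42, where that of all 732 was 0. The difference for miR-143-3p was the smallest, so that scaling, which moved the 4 arms by similar amounts, changed it most in proportion. It was 0.58 (adjusted p = 0.0231) with total miRNA reads as library size, a scaling that moved the median of all miRNAs by -0.80, and 2.11 with upper quartile scaling, which moved it by 0.55.

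Between reprogrammed cells and ESCs, the arms of each hairpin moved apart. Averaged over the reprogrammed types, the 3p arms were lower than in ESCs, miR-143-3p by a VST of -4.22 (SE 0.19, adjusted p = 2.0e-09) and miR-145-3p by -2.95 (SE 0.15, adjusted p = 7.1e-09). The 5p arms were higher, miR-143-5p by 3.50 (SE 0.36, adjusted p = 2.8e-06) and miR-145-5p by 1.50 (SE 0.35, adjusted p = 0.00199). The share of all miRNAs that passed was 82%, with a median size of 2.00, against 3.22 over the 4 arms. In normalized reads, miR-143-3p was 16.7 times lower and miR-143-5p 12.3 times higher than in ESCs. The libraries did not overlap except for miR-145-5p, and 71% of all miRNAs tested did not overlap here.

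Each reprogrammed type showed the pattern against ESCs, with 1 exception. In iPSCs miR-143-3p differed by -5.20 (36.6 times lower), miR-145-3p by -4.32 and miR-143-5p by 2.74, all of which passed, as did 75.8% of all miRNAs. The exception was miR-145-5p, with 0.22 (SE 0.45, adjusted p = 0.661), which became -0.28 without iPSC 62 and 0.73 without iPSC 63. In NT-ESCs the differences were -3.87 for miR-143-3p, 3.46 for miR-143-5p, 2.10 for miR-145-5p and -2.39 for miR-145-3p, all passing, beside 75.8% of all miRNAs. In NT-iPSCs they were -3.60, 4.29, 2.16 and -2.14 in the same order of arms, all passing, beside 77.6% of all miRNAs. The value of miR-145-5p there was 1.33 without NT-iPSC 51 and 2.997 without NT-iPSC 52, and passed in both cases.

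Compared with MEFs, the reprogrammed cells held little of the 3p arms. As a percentage of the MEF mean of normalized reads, miR-143-3p stood at 0.960% in iPSCs and at 2.40% and 2.92% in NT-ESCs and NT-iPSCs, and miR-145-3p at 0.419%, 1.65% and 1.94%. The VST differences lay between -7.84 and -5.07 with adjusted p of at most 3.8e-09. The 5p arms kept more of their level: miR-143-5p stood at 26.3%, 43.9% and 86.4% of MEFs in the same order, and miR-145-5p at 12.02%, 42.3% and 50.9%. As a percentage of the MEF mean of CPM, which takes total miRNA reads as library size, all of these were higher: miR-143-5p stood at 66.4%, 85.7% and 149.5%, miR-145-5p at 30.02%, 80.6% and 84.6%, and the 3p arms at 1.03% to 5.05%. The value of miR-143-5p in NT-iPSCs, the 1 that passed from below to above MEFs, rested on NT-iPSC 52 with a CPM of 280, since NT-iPSC 51 had 105 and the MEF mean was 129. For miR-145-5p the NT-iPSC libraries lay on both sides of the MEF mean CPM of 627, at 803 in NT-iPSC 51 and 258 in NT-iPSC 52, so that its percentages there depend on which library is kept. Among all miRNAs, 87.8% passed between iPSCs and MEFs, 84% between NT-ESCs and MEFs and 83.1% between NT-iPSCs and MEFs.

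The 5p arms of iPSCs differed from MEFs by -1.89 for miR-143-5p (SE 0.46, adjusted p = 0.00261) and -3.10 for miR-145-5p (SE 0.45, adjusted p = 5.2e-05). The first did not pass with total miRNA reads as library size (-0.58, adjusted p = 0.260). In NT-ESCs the 5p arms differed from MEFs by -1.16 (adjusted p = 0.0357) and -1.22 (adjusted p = 0.0255), and in NT-iPSCs by -0.33 (adjusted p = 0.513) and -1.16 (adjusted p = 0.0333). None of these 3 passing calls held under TMM-type scaling, clean or total miRNA reads as library size, or without the filter on low reads. For miR-145-5p the difference of NT-iPSCs from MEFs was -0.32 (adjusted p = 0.490) without NT-iPSC 52 and -1.99 (adjusted p = 0.00152) without NT-iPSC 51. For miR-143-5p, that of NT-iPSCs ran from -1.02 without NT-iPSC 52 to 0.43 with total miRNA reads as library size.

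Among the reprogrammed types, both products of nuclear transfer had higher values of the arms than iPSCs. From iPSCs to NT-ESCs, miR-143-3p differed by 1.33 (SE 0.27, adjusted p = 0.00448), miR-145-5p by 1.88 (SE 0.49, adjusted p = 0.0182) and miR-145-3p by 1.93 (SE 0.22, adjusted p = 0.000266). For miR-143-5p the value was 0.72 (SE 0.51, adjusted p = 0.333). So 3 of 4 arms passed where 25.7% of all miRNAs did. From iPSCs to NT-iPSCs all 4 arms passed, where 26.5% of all miRNAs did: miR-143-3p by 1.60 (adjusted p = 0.0014), miR-143-5p by 1.56 (adjusted p = 0.0436), miR-145-5p by 1.94 (adjusted p = 0.0144) and miR-145-3p by 2.18 (adjusted p = 5.1e-05). The median size over the arms was 1.60 and 1.77, and over all miRNAs 0.62 and 0.60. In normalized reads NT-iPSCs exceeded iPSCs by 3.05 to 4.64 times.

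The 3p arms held in these comparisons under every alternative run, and the 5p arms did not. Of 22 alternatives, the call of miR-143-5p between NT-iPSCs and iPSCs was lost in 10 and that of miR-145-5p in 5, and the call of miR-145-5p between NT-ESCs and iPSCs in 4. All of them were lost with no filter and with only the groups compared (adjusted p of 0.135, 0.163 and 0.0536), and both between NT-iPSCs and iPSCs with total miRNA reads as library size (adjusted p of 0.144 and 0.0563). Without NT-iPSC 52, miR-143-5p differed between NT-iPSCs and iPSCs by 0.87 (adjusted p = 0.324), and without NT-iPSC 51, miR-145-5p by 1.10 (adjusted p = 0.117). Without iPSC 63, miR-145-5p differed between NT-ESCs and iPSCs by 1.37 (adjusted p = 0.126), and without NT-ESC 71 by 1.60 (adjusted p = 0.122). Between NT-iPSCs and NT-ESCs none of the 4 arms passed, where 12.8% of all miRNAs did. The values were 0.27 (SE 0.27), 0.83 (SE 0.51), 0.06 (SE 0.49) and 0.25 (SE 0.22) for miR-143-3p, miR-143-5p, miR-145-5p and miR-145-3p.

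**Figure D2:**
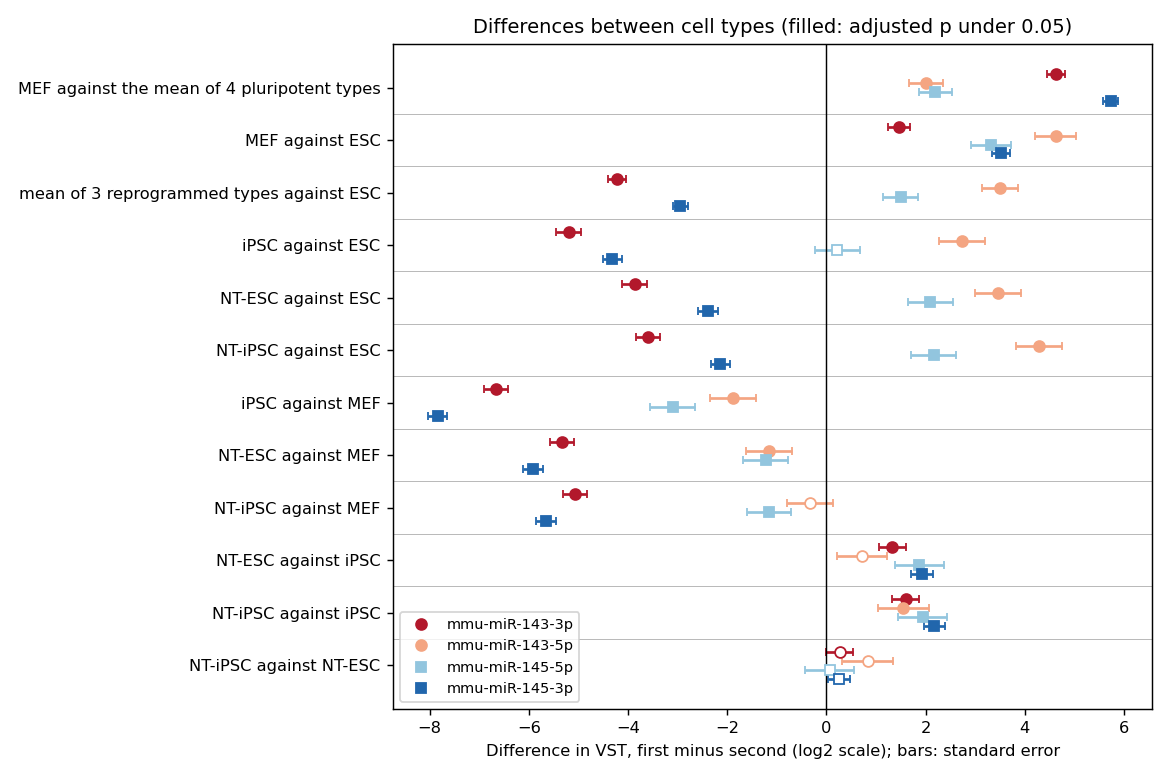
Difference in mean VST (horizontal axis, log2 scale, first cell type minus second) with its standard error for each arm in the 12 comparisons (vertical axis), where filled symbols mark an adjusted p under 0.05. The 3p and 5p arms lie on opposite sides of 0 where reprogrammed cells are compared with ESCs, for example at -4.22 and 3.50 for miR-143 in the mean of the reprogrammed types, and on the same side in the other comparisons.

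The balance between the arms was then followed within each library, where the size factor cancels. In MEFs the 3p arm made up 99.8% ± 0.04 of the miR-143 reads and in ESCs 99.97% ± 0.013 (SD, n = 3 each). Its share was 94.2% ± 2.38 for NT-iPSCs, 96.2% ± 0.40 for NT-ESCs and 94.3% ± 0.69 for iPSCs (SD, n = 2 each). Thus miR-143-3p remained the major product everywhere, but it outnumbered its partner 2617 to 8148 times in ESC libraries, 372 to 524 times in MEF libraries and 12.4 to 27.2 times in reprogrammed ones. For miR-145 the arms were nearly even in MEFs and ESCs and very uneven elsewhere. The 3p arm made up 44.9% ± 3.33 of the miR-145 reads in MEFs and 41.5% ± 3.31 in ESCs (SD, n = 3 each), but 4.01% ± 2.92 for NT-iPSCs, 3.22% ± 1.53 for NT-ESCs and 2.997% ± 1.25 for iPSCs (SD, n = 2 each).

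The shift was tested with limma on the difference of the VST values, 5p minus 3p, over the 263 hairpin names with both arms tested. Averaged over the reprogrammed types and set against ESCs, it was 7.72 for miR-143 (SE 0.33, adjusted p = 1.0e-09) and 4.44 for miR-145 (SE 0.37, adjusted p = 3.2e-07). Such shifts were common, since 79.5% of the hairpins passed, 93 toward the 5p arm and 116 toward the 3p arm, with a median size of 2.69. miR-143 had the 4th largest shift toward the 5p arm and the 12th by size, and miR-145 the 26th toward the 5p arm. Between MEFs and the pluripotent mean the balance differed by -2.63 for miR-143 (SE 0.31) and -3.53 for miR-145 (SE 0.35), both passing, as did 76.4% of the hairpins.

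The arm balance of hairpins in general set the 6 libraries of reprogrammed cells apart from the other 6. Over the 263 hairpins the median size of the shift was 0.68 between MEFs and ESCs, but 2.69 between reprogrammed cells and ESCs and 2.37 between reprogrammed cells and MEFs. Among the reprogrammed types it was 0.33 to 0.41. For miR-145 the difference was -0.20 between MEFs and ESCs, and 4.64 between reprogrammed cells and MEFs. For miR-143 these values were 3.16 and 4.56. No library of MEFs or ESCs belongs to the set with the larger size factors. By the sequencing counts in the study's supplement, the same sets were also apart, without overlap. Every reprogrammed library had more total reads and a larger share of 5′ adaptor contaminants than any MEF or ESC library. Its shares of reads without a 3′ adaptor or without an insert were smaller. The sources used here do not say whether the sets were prepared apart or annotated with different miRNA releases. Such a technical difference and cell type cannot be told apart in these shifts or in the differences of single arms between the sets.

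**Figure D3:**
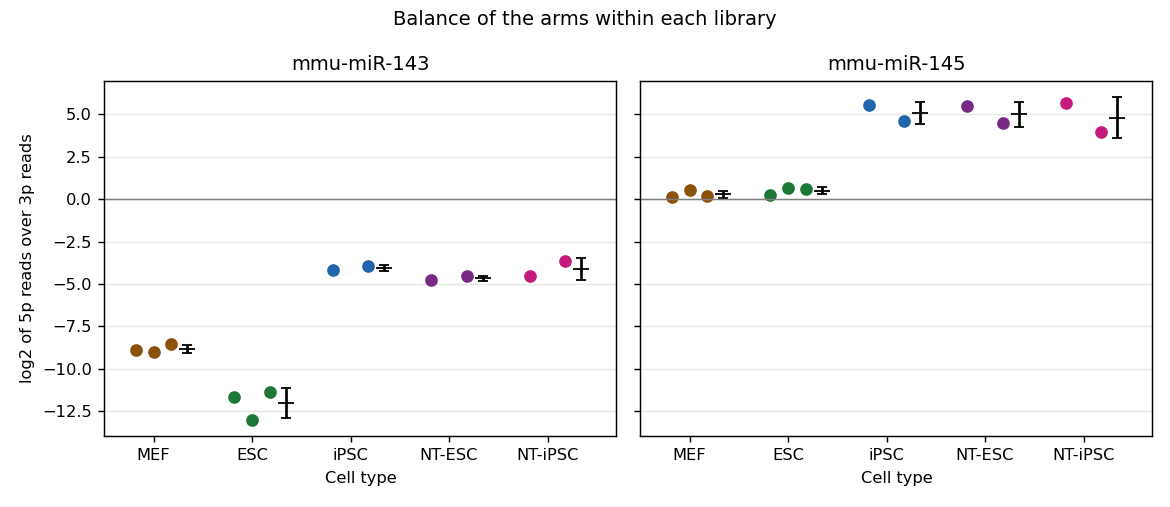
log2 of the reads of the 5p arm over those of the 3p arm (vertical axis) by cell type (horizontal axis) for miR-143 and miR-145, 1 point per library, with the mean and SD beside them and a line at equal reads. miR-145 lies near the line in MEFs and ESCs, with means of 0.29 and 0.50, and at 4.81 to 5.08 in the reprogrammed types, and miR-143 is lowest in ESCs, far below the line.

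The ratio between the usual guides of the hairpins also differed between the library sets. In MEF libraries there were 63.2 to 184 reads of miR-143-3p for each read of miR-145-5p, and in ESC libraries 298 to 414. In iPSC libraries there were 6.49 and 10.2, in NT-ESC libraries 4.29 and 7.26, and in NT-iPSC libraries 3.07 and 13.4. The 6 reprogrammed libraries therefore lay below all MEF and ESC libraries. The mean log2 ratio differed from ESCs by -5.72, which is 52.7 times lower (p = 0.0238 in a two-sided exact permutation test with 84 arrangements, its smallest possible value; lower in 6 of 6 libraries). Between MEFs and the 9 pluripotent libraries it differed by 1.96 (two-sided exact permutation test, p = 0.264). Adjusted over both tests, the values were p = 0.0476 and p = 0.264 by permutation. If any ESC library is left out, the smallest p that the exact test of the first can reach is 0.0714, and the difference lay between -5.83 and -5.60. The ratio compares opposite arms of different hairpins. Over hairpins in general, the median size of the arm shift was 2.69 between reprogrammed cells and ESCs and 0.68 between MEFs and ESCs. So a technical difference between the library sets and cell type cannot be told apart in this ratio. The permuted libraries include batches of the same line, so p does not measure the spread between lines.

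Since the pluripotent cells were grown on irradiated MEFs, the arms were set beside 17 miRNAs linked to fibroblasts and mesenchyme, all tested (of 18 names listed, 1 was not in the table). Between MEFs and ESCs all 17 passed as higher in MEFs, and against the mean of the pluripotent types 16 did and 1 did not pass, where 39.1% and 39.8% of all miRNAs passed as higher in MEFs. Their median differences were 2.999 and 3.60, and those of all miRNAs 0 and -0.29. In ESCs these miRNAs stood at 4.99% to 59.8% of their MEF mean of normalized reads, with a median of 12.6%. miR-143-3p, at 35.1%, was above 15 of them, whereas miR-145-5p, miR-145-3p and miR-143-5p stood at 9.74%, 8.59% and 4.24%. The fibroblast-linked miRNAs of iPSCs stood at 0.191% to 61.7% with a median of 2.64%. Those of NT-ESCs stood at 0.594% to 171% (median 9.94%) and those of NT-iPSCs at 0.543% to 212% (median 11.3%). In each reprogrammed type both 3p arms were below that median and both 5p arms above it.

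None of the fibroblast-linked miRNAs was at 0 in the means of any type, and the highest in NT-ESCs and NT-iPSCs was mmu-miR-199b-3p, whose mature sequence is the same as that of miR-199a-3p. Their summed CPM was 55374 to 60839 in MEFs but 23543 to 26478 in ESCs, close to the 27213 to 28689 of iPSCs. It was higher after nuclear transfer, at 66914 to 68391 in NT-ESCs and 68083 to 80128 in NT-iPSCs. In reprogrammed cells these sums rested mostly on miR-199a-3p and miR-199b-3p, which had mean CPM of 28673 and 28668 in NT-ESCs, so that the same reads appear to be counted under both names. Without the pair, a choice made after seeing the data, the other 15 summed to 39116 to 42418 in MEFs, 20163 to 23798 in ESCs, 7331 to 7559 in iPSCs, 9966 to 10657 in NT-ESCs and 10706 to 12395 in NT-iPSCs. Every reprogrammed library then lay below every ESC library. Much of the ESC sum was miR-196a-5p, with a mean CPM of 9995 in ESCs and of 109 to 249 in the reprogrammed types. Taken singly, 6 of the 17 passed as higher in the mean of the reprogrammed types than in ESCs, 10 as lower and 1 did not pass (median -1.53). Of all miRNAs 82% passed there, 44% of the total as higher (median 0.24). In NT-ESCs and NT-iPSCs against iPSCs, where 3 and 4 of the 4 arms passed as higher, 12 and 15 of the 17 passed as higher, with medians of 1.50 and 1.48, and 0 as lower. Of all miRNAs, 12.6% and 13.4% passed as higher in these comparisons, with medians of -0.10 and 0.0015. The part of feeder RNA in the levels of miR-143 and miR-145 was not tested. In such bulk samples fewer cells of a type and less RNA per cell cannot be told apart.

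**Figure D4:**
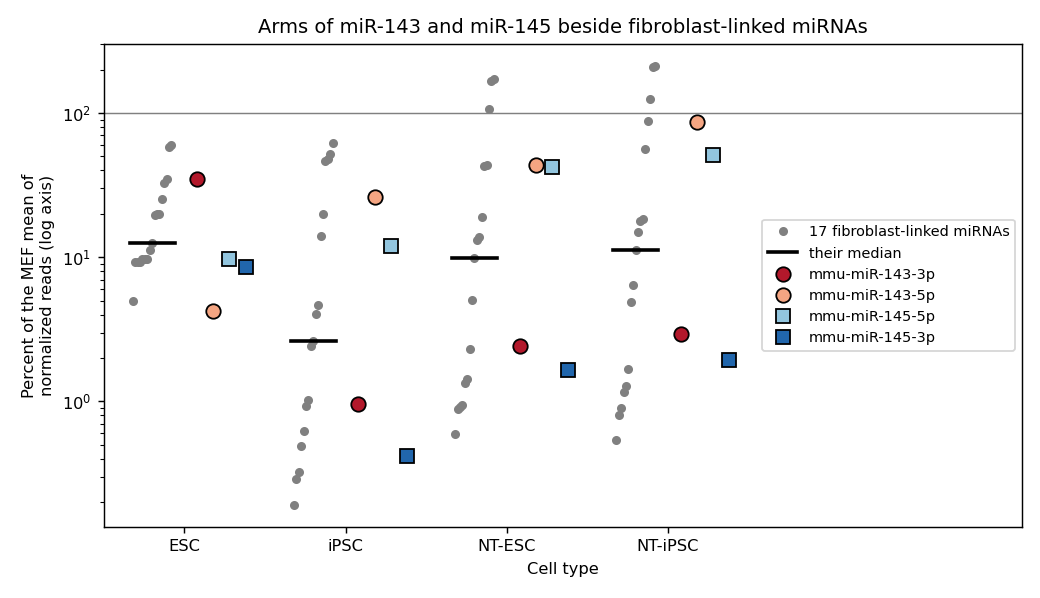
Level of each arm (large symbols) and of 17 fibroblast-linked miRNAs (grey points, black line at their median) as a percentage of the MEF mean of normalized reads (vertical log axis) in the 4 pluripotent types (horizontal axis). In ESCs miR-143-3p lies at 35.1% and in iPSCs at 0.960%, and in each reprogrammed type both 5p arms lie above the median of the grey points and both 3p arms below it.

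Some miRNAs of the fibroblast and muscle lists, such as miR-10a-5p and miR-1a-3p, were also listed for known roles in the smooth muscle phenotype. This list held 15 miRNAs, all tested. Of these, 12 were higher and 1 lower in MEFs than in ESCs (median 1.87), 9 were higher and 5 lower in MEFs than in the mean of the pluripotent types (median 1.42), and 9 were higher and 5 lower in the mean of the reprogrammed types than in ESCs (median 0.83). Of all miRNAs, 39.1%, 39.8% and 44% passed as higher in these comparisons, with medians of 0, -0.29 and 0.24. The most abundant, miR-21-5p, which favours growth of smooth muscle cells, differed by 2.18 between MEFs and ESCs and by -1.98 between reprogrammed cells and ESCs. miR-29a-3p, a repressor of collagen mRNAs, differed by 1.57 and 4.89. miR-1a-3p, a miRNA of heart and skeletal muscle, differed by 7.54 and 3.19. miR-24-3p, which lowers the response of smooth muscle cells to signals of the TGFβ family, differed by 0.77 and -2.66. All 8 values passed.

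Beside miR-145-5p stand other miRNAs known to repress mRNAs of pluripotency factors or their partners. Of 10 listed, all tested, 5 were higher and 4 lower in MEFs than in ESCs (median 0.06), and 3 were higher and 6 lower in the mean of the reprogrammed types than in ESCs (median -0.83). Against the mean of the pluripotent types 3 were higher and 5 lower in MEFs (median -0.39). The shares and medians over all miRNAs are those given for the smooth muscle list. miR-183-5p differed by -5.73 between MEFs and ESCs and by -7.92 between reprogrammed cells and ESCs, miR-34c-5p by 0.80 and -0.67, miR-134-5p by 0.48 and -1.89, and miR-200c-3p by -3.90 and -3.88. All of these passed.

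The miRNAs with the pattern most like that of each arm were found from the root mean square difference of the VST values over the 12 libraries, each miRNA centred on its own mean. For miR-143-3p the nearest was miR-29b-1-5p (0.51), followed by miR-222-5p, miR-100-5p, miR-190-5p and miR-378-3p (0.66). For miR-145-3p the nearest was miR-100-5p (0.38), followed by miR-10b-5p, miR-135a-5p, miR-125b-1-3p and miR-29b-1-5p (0.57). Thus miR-100-5p and miR-29b-1-5p were among the nearest 5 of both 3p arms. For miR-145-5p the nearest was miR-132-5p (0.53), followed by let-7e-3p, let-7d-5p, let-7c-5p and let-7b-5p (0.64). For miR-143-5p the nearest was miR-1948-3p (0.70), followed by miR-181b-1-3p, miR-135a-2-3p, miR-181b-5p and miR-1969 (0.81).

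Mature sequences from RefSeq (GRCm38.p6) are shown for the nearest neighbour of miR-143-3p, of miR-145-3p and of miR-145-5p, for miR-10b-5p, next nearest to miR-145-3p, and for the let-7 arms that share a seed, with the seed, bases 2 to 8, in capitals.
mmu-miR-29b-1-5p: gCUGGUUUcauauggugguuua
mmu-miR-100-5p: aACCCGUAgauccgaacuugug
mmu-miR-10b-5p: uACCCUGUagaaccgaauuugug
mmu-miR-132-5p: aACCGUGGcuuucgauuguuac
mmu-let-7d-5p: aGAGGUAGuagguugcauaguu
mmu-let-7c-5p: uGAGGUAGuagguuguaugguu
mmu-let-7b-5p: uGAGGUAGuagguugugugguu
Of the 18 different miRNAs named as nearest, 14 had a sequence in the RefSeq table, with 12 different seeds. The 3 let-7 arms near miR-145-5p had the seed GAGGUAG in common, and every other seed occurred once. miR-29b-1-5p lies at 31063067 to 31063088 on the minus strand of chromosome 6, miR-132-5p at 75173686 to 75173707 on the plus strand of chromosome 11, and miR-10b-5p at 74726074 to 74726096 on the plus strand of chromosome 2. miR-100-5p, at 41531437 to 41531458, and miR-125b-1-3p, at 41581980 to 41582001, lie on the plus strand of chromosome 9.

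Between the members, like arms of different hairpins were nearer to each other than the arms of 1 hairpin. The difference was 0.82 between miR-143-3p and miR-145-3p and 1.22 between miR-143-5p and miR-145-5p, but 3.30 between the arms of miR-143 and 2.32 between those of miR-145. Among the 731 other miRNAs, miR-143-3p ranked 15th in nearness to miR-145-3p, and miR-145-3p ranked 25th in nearness to miR-143-3p. For the 5p arms, miR-143-5p ranked 77th in nearness to miR-145-5p, and miR-145-5p ranked 31st in nearness to miR-143-5p. These are descriptions over 12 libraries that come in groups of the same cell type and differ in depth. The general shift in arm balance between the library sets also enters them.

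**Figure D5:**
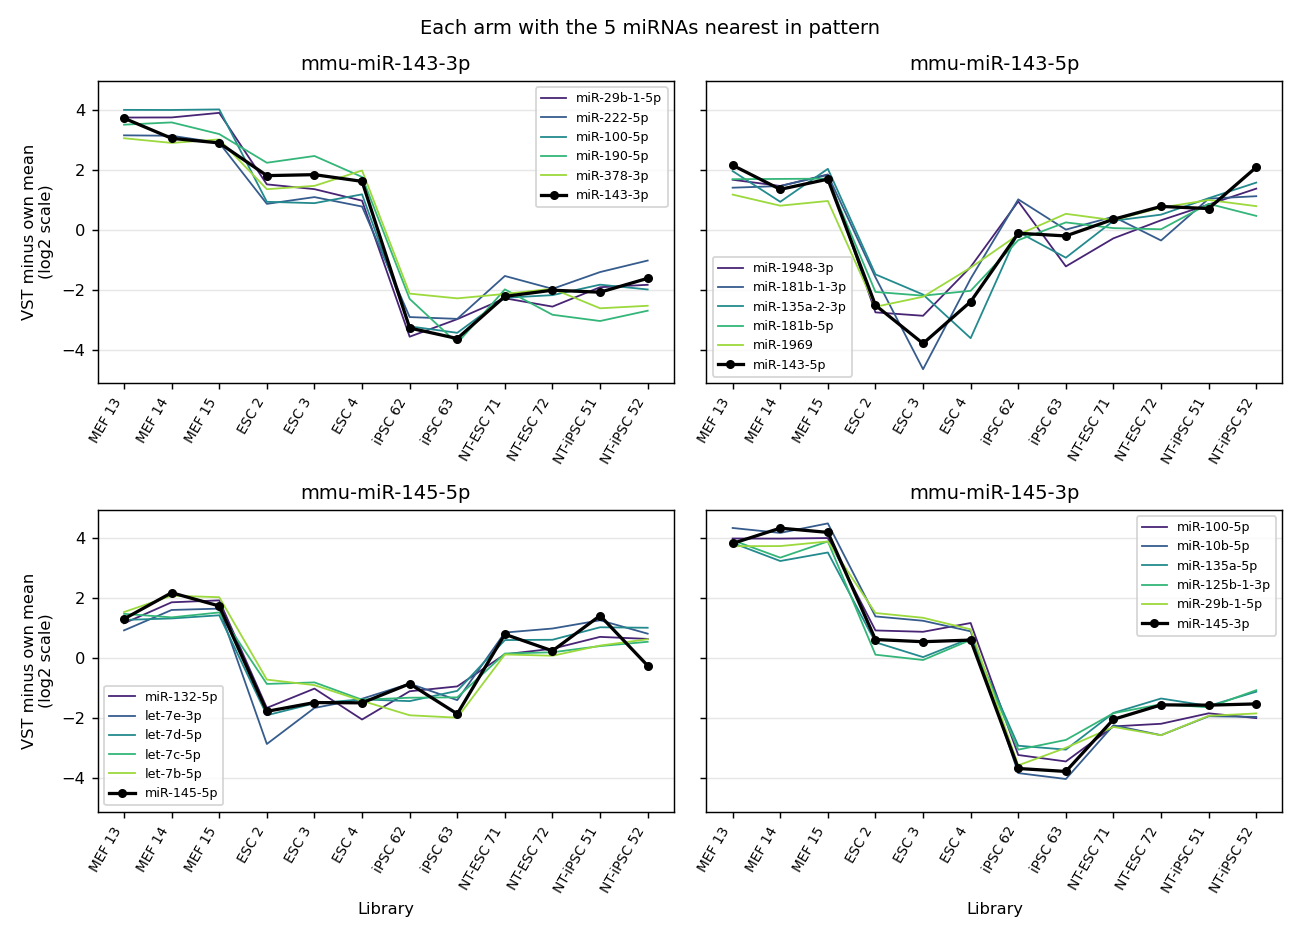
VST of each arm (black) and of the 5 miRNAs nearest to it in pattern (coloured), each minus its own mean (vertical axis, log2 scale), over the 12 libraries (horizontal axis). The neighbours of the 3p arms step down from MEFs to ESCs and again to reprogrammed cells, those of the 5p arms are lowest in ESCs or iPSCs, and the root mean square differences run from 0.38 to 0.81.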

How the data were processed

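Per the labels, small RNA libraries of 12 samples of total RNA were prepared with Illumina protocols by BGI-Shenzhen and sequenced (Solexa). By their methods and processing notes, the authors removed low-quality tags, adaptors and contaminants, annotated clean reads (build mm8) and normalized miRNA reads with DESeq. The deposited values are on a log2 scale after variance stabilization by the authors, 1 column per library and not pooled. The aligner, miRBase release and DESeq version are not given in the sources used here.

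The transformation was inverted. Recovered reads deviated from whole numbers by at most 0.00347, the VST recomputed from them differed by at most 9.6e-07, and the size factors were 0.992 to 1.01 times those from the median of ratios. Groups came from the labels. In R 4.3.3, limma 3.58.1 was fitted to these values with 5 group means, empirical Bayes with trend, and Benjamini-Hochberg adjustment at 0.05 over 732 of 1042 miRNAs, those that reached 10 reads in 2 or more libraries. It was tested on simulated data. Summaries used Python 3.11.15 with pandas 2.3.3 and numpy 2.4.6, exact permutation tests scipy 1.17.1, and plots matplotlib 3.10.9. miRNAs named were the 4 arms, the 5 nearest to each in pattern, and the 4 with the most reads of a list. The members and lists were chosen with earlier results of these data known. Alternatives were TMM-type and upper quartile scaling, total miRNA or clean reads as library size, pseudocounts of 1 and 10, voom, other filters, only the groups compared, and each library left out. Clean reads were taken from the supplement. The mature sequences of the 4 arms are not reported here.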

Additional observations from a re-analysis of the deposited data

How the results depend on the processing

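No paired analysis was possible because the replicate numbers of the labels are not shared between groups. No direction that passed the test for an arm reversed under any alternative. Of the alternatives for single arms and arm balances, 42 lost a call, all of 5p arms against MEFs or among reprogrammed cells, and none gained one. The ratio of miR-143-3p to miR-145-5p between reprogrammed cells and ESCs was -5.92 to -5.50 with 1 library left out, and lost its call (p = 0.0714, exact permutation) without any ESC library, where fewer arrangements are possible. Between NT-iPSCs and NT-ESCs 94 miRNAs were called (12.8% of those tested), and 168 (23.0%) with a pseudocount of 10, 172 (23.5%) with voom, 55 (5.28%) with no filter and 47 (6.42%) with only the groups compared. With 1 library left out the share there was 1.09% to 17.8%: 8 and 13 miRNAs without NT-ESC 71 and 72, 39 and 43 without NT-iPSC 51 and 52, and 53 without ESC 3. Between NT-iPSCs and iPSCs 194 were called, and 107 (14.6%) with only the groups compared. Between NT-ESCs and iPSCs 188 were called, and 111 and 103 without NT-ESC 71 and 72, the range over all libraries left out being 14.1% to 30.2%. When a group had to hold 100 reads in each of its libraries, fewer hairpins were tested and 121 arm balances (80.7%) passed in each of the 2 comparisons, against 201 and 209. Using only the groups compared is the same fit for MEFs against the mean of all others and was not run for it. Where other counts of calls are concerned, none moved by more than 1.5 times.

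Scaling moved the share of calls that were higher. For MEFs against ESCs it was 49.5%, and 37.8% with TMM-type scaling, 60.4% with upper quartile scaling and 29.6% with total miRNA reads. Total miRNA reads gave 32.5% (46.0%) for MEFs against the mean of the others, 68.1% (55.4%) and 66.2% (54.6%) for iPSCs and NT-ESCs against MEFs, 25.1% (48.9%) and 21.03% (50.5%) for NT-ESCs and NT-iPSCs against iPSCs, and 20.8% (43.6%) for NT-iPSCs against NT-ESCs. Clean reads gave 34.8% and 31.1% for NT-ESCs and NT-iPSCs against iPSCs. Depth limits most the values of miR-145-3p in iPSCs, with 28 and 30 reads, and of miR-143-5p in ESC 3, with 28.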
